A study of Mus musculus with 9 samples.

Results

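The endoplasmic reticulum (ER) folds and checks proteins that enter the secretory pathway. Chaperones of the Hsp70 and Hsp90 families, disulfide isomerases and sugar-binding lectins hold and fold new chains there. ER-associated degradation (ERAD) pulls failed chains back into the cytosol for the proteasome. When unfolded chains build up, the sensors IRE1, PERK and ATF6 start the unfolded protein response, which raises transcription of many of these same genes. In astrocytes, as in other secreting cells, the pathway serves proteins made for release and for the cell surface.

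The genes described here are 37 members of this machinery, chosen by name from the 18061 genes listed in the deposited expression table, and all 37 were found. They comprise 8 lumenal Hsp70 and Hsp90 family chaperones and cochaperones, 6 disulfide isomerases, 3 members of the lectin cycle, 2 secreted factors, 4 sensors and transcription factors, 11 ERAD genes and 3 genes of the translocon. All 37 passed the filter on low values, a level of at least 1 CPM (counts scaled to a total of 1000000 per library) in at least 3 of the 9 libraries, which 14058 genes passed.

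The libraries came from RNA of primary cortical astrocytes, grown in serum-containing medium from wild-type C57BL/6 mouse pups. The 3 control cultures were naïve and spent their last day without glucose. The 3 acetate cultures received 10 mM sodium acetate during that glucose-free day, and the 3 cultures with amyloid-beta (Aβ) plus acetate also received 1 µM Aβ oligomers for 5 days, starting on day 8 in vitro. All groups share the glucose-free medium from day 11 to harvest on day 12, so no group kept in glucose and no group with Aβ alone was analysed here. Titles call the 3 samples of a group biological replicates and do not say whether they came from separate litters.

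Library names come in 2 styles, and these define 2 library sets that each hold libraries of every group. Controls 1 and 2 and replicate 1 of each treated group make up set 1. Control 3 and replicates 2 and 3 of each treated group make up set 2. What distinguishes the sets is not given in the labels. Taking the lowest CPM value shared by many genes as 1 read, the implied depth was 22160000 to 57030000 reads, with overlapping ranges in the sets. The authors' CPM values are not scaled to gene length. Log2 differences are on the log2(CPM + 1) scale, which understates the change of low genes. Tests are from limma over all tested genes, two-sided, with Benjamini-Hochberg adjustment and a threshold of 0.05. "Higher" and "lower" of a called gene mean past that threshold.

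Markers of the labelled tissue were present in every library. The 10 astrocyte markers summed to 8550 to 10100 CPM in set 1 and 10800 to 12900 CPM in set 2. Single astrocyte markers went both ways, with 4 of 10 higher in every set 2 library than in any of set 1 and 3 lower. Of all tested genes, 34.1% were higher in this way, and the share lower in this way was not counted. Gfap, the largest of the 10, had 3430 to 4810 CPM in set 1 and 4770 to 6540 CPM in set 2, while Glul had 927 to 1060 CPM and 313 to 473 CPM. Marker sums of other cell types also differed between the sets. The 14 microglial markers summed to 83 to 226 CPM in set 1 and 326 to 529 CPM in set 2. The 10 fibroblast and meningeal markers summed to 3030 to 3360 CPM and 1320 to 1540 CPM, the 5 mural markers to 3000 to 3720 CPM and 555 to 775 CPM, and the 8 oligodendrocyte-lineage markers to 657 to 873 CPM and 146 to 224 CPM. Of these lists, every set 2 library was above set 1 for 12 of 14 microglial, 0 of 10 fibroblast, 0 of 5 mural and 2 of 8 oligodendrocyte markers, and below it for 1, 9, 5 and 3. The counts above set 1 are likewise read against 34.1% of all tested genes. The counts below it have no share of the same kind. By limma, a different measure, 32.3% of all tested genes were called lower in set 2. Sums of the neuronal markers overlapped between the sets at 475 to 635 CPM over both. Those of the ependymal markers also overlapped, at 315 to 503 CPM. The 5 listed endothelial markers had sums of 34.3 to 38.9 CPM in set 1 and 35.6 to 52.1 CPM in set 2. Single markers differed in these lists too. Every set 2 library was above set 1 for 2 of 7 neuronal, 1 of 4 ependymal and 1 of 5 endothelial markers. Over all tested genes this share was 34.1%. Every set 2 library was below set 1 for 2, 0 and 1 of these markers. No marker was at 0 in all libraries. The part of these cell type differences in the results below was not tested. In bulk RNA, fewer cells of a type and less RNA per cell cannot be told apart.

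Many genes of this machinery are known targets of ATF6 and XBP1, which act through the ER stress element. Promoter windows running from 250 bases before to 50 bases after the gene start were taken from RefSeq on GRCm38.p6 for 32 of the 37 genes. Hyou1, Manf, Atf6, Derl1 and Sec61a1 had no window in that table. The ER stress element, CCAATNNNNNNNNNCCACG on either strand, was found in 9 of the 32 genes (28.1%) and in 37 of all 27025 genes with a window (0.137%). These 9 are Hspa5, Hsp90b1, Dnajc3, Pdia6, Calr, Canx, Creld2, Syvn1 and Derl3, and Hsp90b1 holds the element on both strands at separate places. The ER stress element II, ATTGGNCCACG, was found in Dnajb11 and Herpud1, 6.25% of the members with a window against 0.0444% of all genes. The UPR element TGACGTGG was found in Txndc5 alone, 3.12% against 0.714%. The amino acid response element TGATGNAAN was found in Txndc5 and Herpud1, 6.25% against 4.5%. None of these matches overlapped another. Many members were known targets beforehand, so their share beside that of all genes is a description and not a test.

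The fragments printed here show the element, in capitals, with 15 bases on each side, read 5′ to 3′ on the gene's own strand. They come from genes that stood far apart between the library sets, and from Canx, which holds the same element and differed far less.
Hspa5, chr2:34772010-34772058, + strand: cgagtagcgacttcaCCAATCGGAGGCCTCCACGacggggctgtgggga
Hsp90b1, chr10:86705623-86705671, - strand: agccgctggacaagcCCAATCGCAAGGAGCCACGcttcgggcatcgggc
Hsp90b1, chr10:86705518-86705566, - strand: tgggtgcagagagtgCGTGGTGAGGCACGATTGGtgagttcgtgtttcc
Creld2, chr15:88819505-88819553, + strand: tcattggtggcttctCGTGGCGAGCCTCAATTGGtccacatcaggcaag
Derl3, chr10:75893227-75893275, + strand: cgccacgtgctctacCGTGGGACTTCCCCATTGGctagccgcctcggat
Syvn1, chr19:6046517-6046565, + strand: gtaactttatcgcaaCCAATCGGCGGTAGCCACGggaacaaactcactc
Canx, chr11:50325785-50325833, - strand: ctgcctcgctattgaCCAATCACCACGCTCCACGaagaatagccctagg
Herpud1, chr8:94386362-94386402, + strand: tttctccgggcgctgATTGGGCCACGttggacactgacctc
Counting the start base as 0, the element began at -65 in Hspa5, at -212 and -107 in Hsp90b1, at -126 in Creld2, at -156 in Derl3, at -44 in Syvn1 and at -145 in Canx. In Creld2, Derl3 and the second Hsp90b1 fragment the element lies on the opposite strand and so reads with its CCACG end first, as CGTGG. Herpud1 carries the shorter element II, from -52. A match of these letters is a description of the sequence, and binding was not measured.

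The ER genes differed between the library sets far more than between treatments. In set 2, 32 of the 37 genes were higher than in set 1, 1 was lower and 4 were not called. Their median log2 difference was 1.69, against 0.05 over all tested genes. Calls were common in this comparison, with 38.4% of all tested genes higher and 32.3% lower, and the members' counts are read against these shares. Of the members, 25 were over 2-fold higher, which 7.46% of all tested genes were. An 8-fold difference was passed by 42 genes in all (0.299%), and 8 of those 42 were members. In the order of all 14058 log2 differences from the highest, Derl3 was number 2, Sdf2l1 number 5 and Herpud1 number 9, and 24 members were among the top 500.

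**Figure D1:**
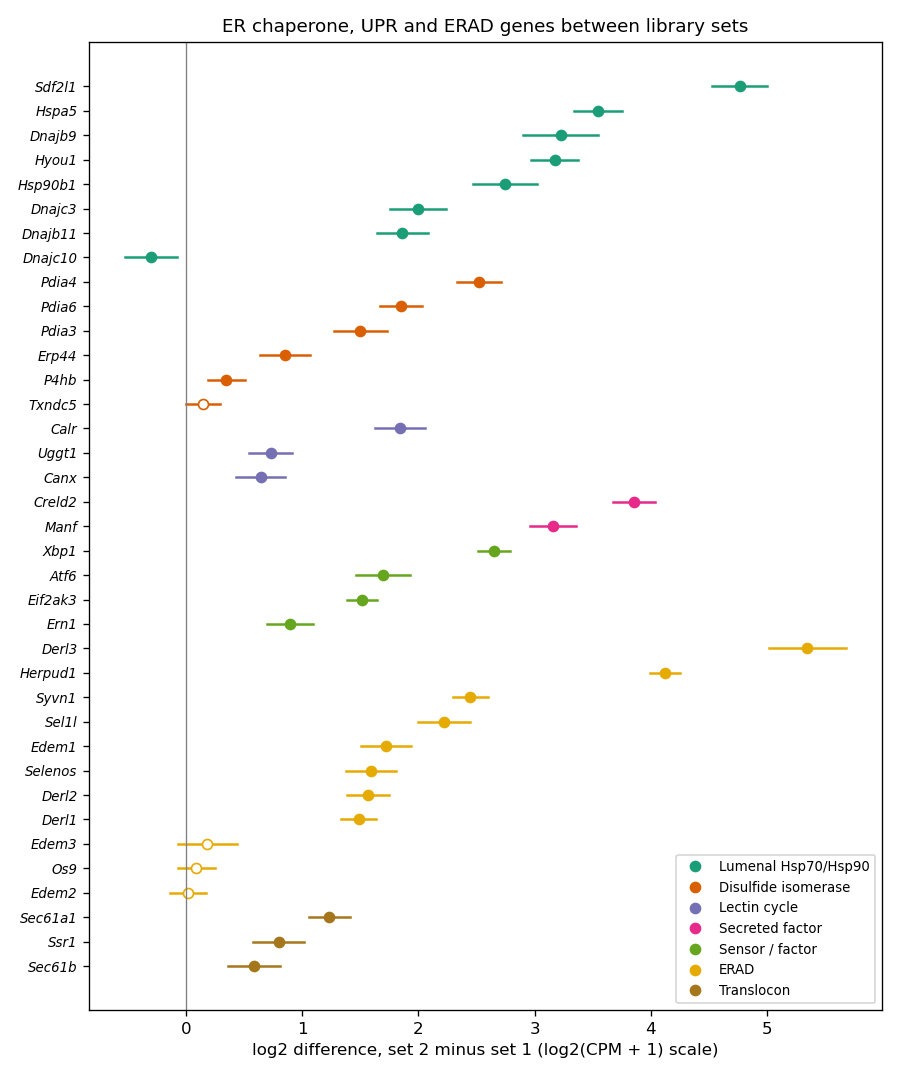
Log2 difference between set 2 and set 1 (x axis, log2(CPM + 1) scale) for each of the 37 genes, grouped and coloured by role, with 95% confidence intervals from limma. Filled points passed the adjusted threshold, and open points (Txndc5, Edem3, Os9 and Edem2) did not. Derl3 at 5.35 is the highest, and Dnajc10 at -0.30 is the only called gene below 0.

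The members together took 0.73 to 0.816% of all CPM in the set 1 libraries and 2.68 to 3.52% in the set 2 libraries. For 32 of the 37 genes every set 2 library lay above every set 1 library, which held for 34.1% of all tested genes. The same difference was present inside each treatment group, with a median of 1.78 in controls, 1.60 with acetate and 1.56 with Aβ plus acetate. Gene positions below are on mm10, as deposited, and library values are given in a fixed order. Within each set the controls come first, in order of their replicate numbers, then the acetate libraries and last those with Aβ plus acetate, so set 1 runs from control 1 to Aβ plus acetate 1 and set 2 from control 3 to Aβ plus acetate 3.

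**Figure D2:**
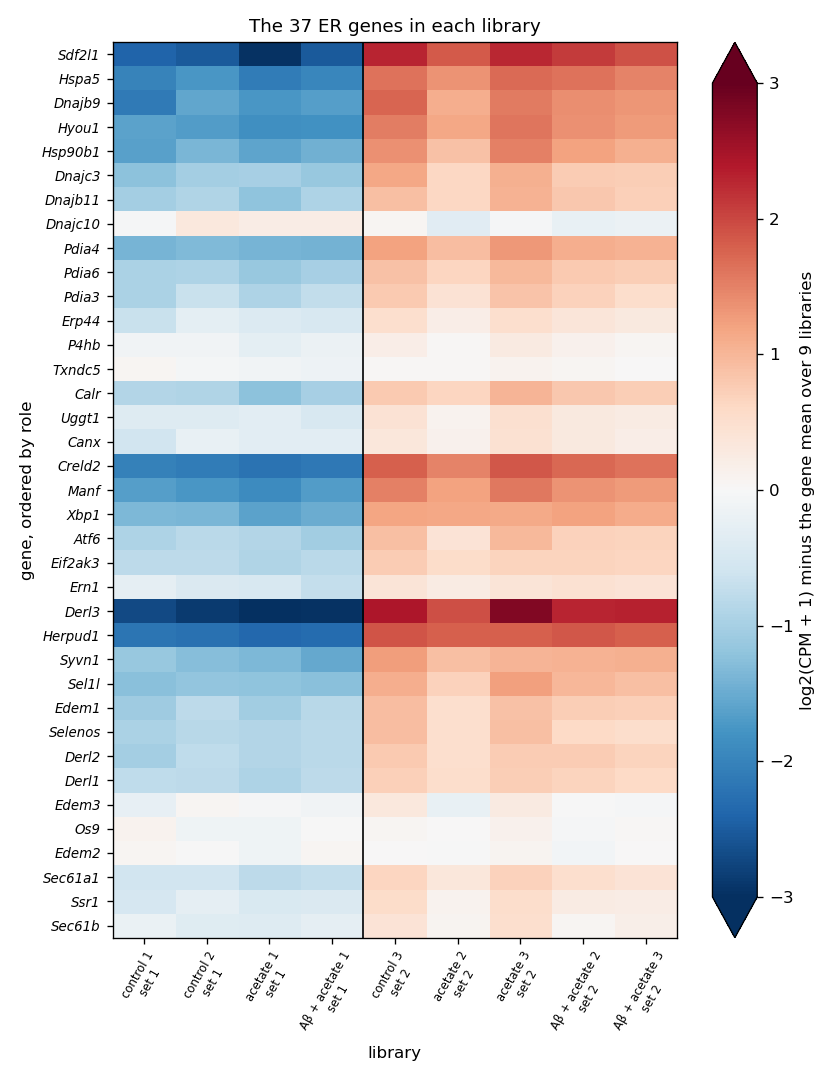
Log2(CPM + 1) of each of the 37 genes (rows, ordered by role) in each of the 9 libraries (columns), minus the mean of the gene over all libraries. A black line separates set 1 (left) from set 2 (right), and colours beyond 3 in either direction are drawn at the end of the scale. Most rows turn from blue to red at the line, while rows with small differences stay pale, among them Dnajc10, P4hb, Txndc5, Os9, Edem2 and Edem3.

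Of the 8 lumenal chaperones and cochaperones, 7 were higher in set 2 and 1 was lower, with a median log2 difference of 2.96. Hspa5 (chr2:34772090-34776530, + strand) encodes BiP, the ER Hsp70 that binds unfolded chains and holds the sensors inactive. It had 569, 674, 530.3 and 582 CPM in set 1 and 7032, 5789.8, 7342, 7046 and 6366 CPM in set 2. Its values in set 2 were all above those in set 1, with an 11.4-fold ratio of the set means and a log2 difference of 3.55 (SE 0.09, adjusted p = 1.25e-10). BiP mRNA took 0.053 to 0.0674% of all CPM in set 1 and 0.579 to 0.734% in set 2. Sdf2l1 (chr16:17130138-17132384, - strand) encodes a lumenal partner of the BiP cochaperones. Its values were 11.8, 10.7, 7.63 and 10.9 CPM in set 1 and 329, 243, 324, 287 and 255 CPM in set 2. The sets did not overlap, and the lowest set 1 value was in acetate 1. The ratio of the means was 28.0-fold and the log2 difference 4.76 (SE 0.11, adjusted p = 4.99e-11). Dnajb9 (chr12:44205897-44210069, - strand) encodes ERdj4, a BiP cochaperone that brings BiP back to the IRE1 sensor. It measured 62.8, 93.5, 81.8 and 88.0 CPM in set 1 and 940.4, 591, 816, 735 and 695 CPM in set 2. Control 1 was the lowest and control 3 the highest, and the sets were apart by 3.23 (SE 0.15, adjusted p = 7.44e-09) in log2.

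Hyou1, the large Hsp70-like exchange factor for BiP, had 147 ± 11.5 CPM in set 1 (SD, n = 4) and 1287 ± 161 CPM in set 2 (SD, n = 5), a log2 difference of 3.17 (SE 0.09, adjusted p = 2.27e-10). Hsp90b1, the ER Hsp90 (GRP94), had 664 ± 56.4 CPM in set 1 (SD, n = 4) and 4394 ± 736 CPM in set 2 (SD, n = 5), a difference of 2.74 (SE 0.13, adjusted p = 7.56e-09). Exons of Hsp90b1 overlap those of the listed gene 1810014B01Rik over 10.3% of their length, those of Pdia3, Pdia6, Txndc5, Manf, Syvn1 and Derl2 overlap another listed gene over 0.6 to 5.0%, and the labels do not say that reads were counted by strand. Dnajc3, the cochaperone p58IPK that also restrains PERK, differed by 2.00 (SE 0.11, adjusted p = 3.50e-08), and Dnajb11, the cochaperone ERdj3, by 1.86 (SE 0.10, adjusted p = 2.39e-08). Dnajc10 encodes ERdj5, a cochaperone that reduces disulfides for ERAD. It went the other way, with 179.5 ± 18.3 CPM in set 1 (SD, n = 4) and 144 ± 16 CPM in set 2 (SD, n = 5) and a log2 difference of -0.30 (SE 0.10, adjusted p = 0.0199). Its library values overlapped between the sets, and the call was lost without acetate 1 (log2 -0.25) or without Aβ plus acetate 1 (log2 -0.24).

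Disulfide isomerases form and rearrange the bonds that lock folded chains. Of the 6, 5 were higher in set 2, with a median log2 difference of 1.17. Pdia4 (chr6:47796141-47813513, - strand), also called ERp72, had 381, 400.0, 382 and 373 CPM in set 1 and 2321, 1908, 2483, 2139.9 and 2072 CPM in set 2. Its set 1 libraries lay close together, and all set 2 libraries were far above them, at a log2 difference of 2.52 (SE 0.09, adjusted p = 7.01e-10). Pdia6 (chr12:17266589-17284786, + strand), an isomerase that also acts on the sensors IRE1 and PERK, had 221, 226, 194 and 215 CPM in set 1 and 798, 676, 849, 743 and 715 CPM in set 2. The sets were apart in every library, by 1.85 (SE 0.08, adjusted p = 5.56e-09) in log2. Pdia3 (chr2:121413902-121438687, + strand), the isomerase ERp57 that works with calnexin and calreticulin, had 491, 593, 495 and 569 CPM in set 1 and 1623, 1269.6, 1701, 1532 and 1369 CPM in set 2. It differed by 1.5 (SE 0.10, adjusted p = 2.17e-07), with no overlap between the sets. Erp44, which retains client proteins in the early secretory pathway, differed by 0.85 (SE 0.10, adjusted p = 1.33e-05). P4hb, the classical protein disulfide isomerase, had 501 ± 31.6 CPM in set 1 (SD, n = 4) and 622 ± 42.6 CPM in set 2 (SD, n = 5) and the smallest called rise of the family, 0.35 (SE 0.07, adjusted p = 0.0013). Txndc5, also an isomerase, had 413 ± 25.7 CPM in set 1 (SD, n = 4) and 449.6 ± 10.9 CPM in set 2 (SD, n = 5). Its log2 difference of 0.14 did not pass the threshold (limma adjusted p = 0.0715), though it did under 3 of the alternatives.

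All 3 genes of the lectin cycle, which folds glycoproteins, were higher in set 2. Calr (chr8:84842088-84846932, - strand) encodes the soluble lectin calreticulin. It had 714, 703, 563 and 656 CPM in set 1 and 2259, 2052, 2687, 2316 and 2212 CPM in set 2. Acetate 1 was the lowest and acetate 3 the highest, and the log2 difference between sets was 1.84 (SE 0.10, adjusted p = 2.51e-08). Uggt1 (chr1:36140028-36244303, - strand) encodes the glucosyltransferase that marks unfolded glycoproteins for another round. Its values were 146, 146, 153 and 136 CPM in set 1 and 258, 206, 268, 233 and 227 CPM in set 2. Canx (chr11:50293957-50325674, - strand), the membrane lectin calnexin, had 765, 966, 904 and 916 CPM in set 1 and 1444, 1245, 1555, 1389 and 1301 CPM in set 2. Both differed by less than Calr, Uggt1 by 0.73 (SE 0.08, adjusted p = 1.31e-05) and Canx by 0.64 (SE 0.10, adjusted p = 1.07e-04), and neither overlapped between sets.

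The factors that are released from stressed cells stood among the genes farthest apart. Creld2 (chr15:88819646-88826682, + strand) encodes an ER-resident and secreted protein with isomerase activity. It had 35.7, 34.0, 31.1 and 32.9 CPM in set 1 and 514, 422, 543, 497 and 461 CPM in set 2. All set 1 values lay between 31.1 and 35.7 CPM and the ratio of the means was 14.6-fold, a log2 difference of 3.86 (SE 0.08, adjusted p = 3.40e-11). Manf (chr9:106888753-106891939, - strand) encodes a factor first described as neurotrophic, which binds BiP in the ER. Its values were 101, 96.1, 87.4 and 101 CPM in set 1 and 931, 747, 965, 831 and 791 CPM in set 2. The sets were clearly separate, at a log2 difference of 3.16 (SE 0.09, adjusted p = 2.27e-10).

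Each of the 4 sensors and transcription factors was higher in set 2, with a median of 1.60. Xbp1 (chr11:5520641-5525994, + strand) encodes the transcription factor whose mRNA IRE1 splices, and gene-level values do not separate its spliced form. It had 52.2, 51.5, 43.4 and 47.8 CPM in set 1 and 308, 301, 298, 313 and 294 CPM in set 2. The 5 set 2 libraries lay within a narrow band, and the log2 difference was 2.65 (SE 0.06, adjusted p = 5.90e-11). Atf6 (chr1:170704457-170867772, - strand) encodes the sensor that is cut in the Golgi to release a transcription factor. Its values were 91.1, 99.8, 94.6 and 84.4 CPM in set 1 and 329, 234, 343, 285 and 281 CPM in set 2. Within set 2, acetate 2 was the lowest, and the sets differed by 1.69 (SE 0.10, adjusted p = 8.32e-08). Eif2ak3 (chr6:70844515-70905242, + strand) encodes PERK, the kinase that slows translation. It measured 47.1, 47.1, 43.6 and 46.3 CPM in set 1 and 139.7, 121, 131, 131 and 129.6 CPM in set 2. Neither set overlapped the other, at a log2 difference of 1.51 (SE 0.06, adjusted p = 2.03e-09). Ern1 (chr11:106397620-106487797, - strand) encodes IRE1 alpha, the sensor kinase and nuclease. It had 16.3, 14.5, 13.9 and 11.8 CPM in set 1 and 26.3, 23.8, 26.2, 27.6 and 26.9 CPM in set 2. The difference of 0.89 (SE 0.09, adjusted p = 4.66e-06) was the smallest among them, and the sets did not overlap.

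ERAD genes ran from near 0 to the largest difference of all 37, with 8 of 11 higher and 3 not called. Derl3 (chr10:75893398-75895942, + strand) encodes a derlin of the retrotranslocation channel and had low values in set 1. It measured 2.03, 1.72, 1.15 and 1.55 CPM in set 1 and 106, 74.6, 135, 96.3 and 97.4 CPM in set 2. The ratio of the means was 63.2-fold, the largest among the 37 genes, and the log2 difference 5.35 (SE 0.15, adjusted p = 2.27e-10). Herpud1 (chr8:94386429-94395372, + strand) encodes a membrane scaffold of the ubiquitin ligase complex. Its values were 44.9, 43.6, 40.4 and 41.5 CPM in set 1 and 774, 726, 727, 766 and 729 CPM in set 2. Herpud1 varied little within either set and differed by 4.12 (SE 0.06, adjusted p = 3.48e-12). Syvn1 (chr19:6046576-6053719, + strand) encodes HRD1, the ubiquitin ligase at the centre of the complex. It measured 52.6, 48.1, 45.7 and 39.9 CPM in set 1 and 282, 221, 237, 241 and 245 CPM in set 2. Aβ plus acetate 1 was the lowest library and control 3 the highest, and the log2 difference between sets was 2.45 (SE 0.07, adjusted p = 2.27e-10).

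The other called ERAD genes were Sel1l, the adaptor of HRD1, at 2.22 (SE 0.10, adjusted p = 8.78e-09), Edem1, which hands over mannose-trimmed glycoproteins, at 1.72 (SE 0.10, adjusted p = 4.29e-08), and Selenos, a selenoprotein that recruits p97, at 1.59 (SE 0.10, adjusted p = 8.05e-08). The derlins Derl2 and Derl1 differed by 1.57 (SE 0.08, adjusted p = 2.51e-08) and 1.49 (SE 0.07, adjusted p = 7.52e-09), far less than Derl3. The genes that were not called also act on glycoproteins. Edem3 had 127 ± 12.0 CPM in set 1 (SD, n = 4) and 142 ± 22.3 CPM in set 2 (SD, n = 5), a log2 difference of 0.18 (SE 0.12, adjusted p = 0.171). Os9, a lectin that delivers clients to HRD1, had 232 ± 17.7 CPM in set 1 (SD, n = 4) and 245 ± 11.4 CPM in set 2 (SD, n = 5), with 0.09 (SE 0.07, adjusted p = 0.3). Edem2, which makes the first mannose cut, had 41.9 ± 2.80 CPM in set 1 (SD, n = 4) and 42.0 ± 1.74 CPM in set 2 (SD, n = 5), with 0.02 (SE 0.07, adjusted p = 0.848) and a 95% interval from -0.14 to 0.18.

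All 3 translocon genes, which let new chains into the ER, were higher in set 2, with a median of 0.80. Sec61a1 (chr6:88503607-88518801, - strand) encodes the channel itself. It had 164, 163, 142 and 149 CPM in set 1 and 384, 311, 394, 348 and 326 CPM in set 2. Ssr1 (chr13:37971401-37994209, - strand) encodes a subunit of the translocon-associated TRAP complex and had 177, 210.2, 183 and 187 CPM in set 1 and 370.2, 273, 367, 298 and 297 CPM in set 2. Every set 2 library was above every set 1 library for both, with log2 differences of 1.23 (SE 0.08, adjusted p = 1.11e-07) and 0.80 (SE 0.10, adjusted p = 2.24e-05). Sec61b (chr4:47474661-47483234, + strand) encodes a small channel subunit. Its values were 25.8, 22.7, 22.4 and 24.3 CPM in set 1 and 39.3, 31.1, 42.1, 31.0 and 33.8 CPM in set 2. The sets did not overlap, and the log2 difference was 0.58 (SE 0.10, adjusted p = 3.28e-04).

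Scaled to exon length, the order of levels within the group also differed between sets. In set 1 the highest levels per kilobase of exon were those of Calr at 229 CPM per kb, Canx at 189, P4hb at 175 and Pdia3 at 171, with Hspa5 in place 7 at 139 CPM per kb. In set 2, Hspa5 was first at 1590 CPM per kb, followed by Hsp90b1 at 1090 and Pdia4 at 911. Derl3 was last of 37 in set 1, at 0.808 CPM per kb, and in place 24 in set 2, at 51.1. Creld2 moved from place 19 to place 6 and Herpud1 from place 25 to place 7. These levels use the GENCODE M21 exon union of each gene, and the isoforms in use were not measured.

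Genes with the ER stress element in their promoter window had a median log2 difference between sets of 2.45 (range 0.64 to 5.35, n = 9). The 23 genes with a window and without this element, among them Herpud1 and Dnajb11 with element II, had a median of 1.5 (range -0.30 to 4.76). These ranges overlap, and Sdf2l1 at 4.76 and Dnajb9 at 3.23 had none of the 4 elements in their windows. Outside the 37 genes, 28 further genes carried the element and 11 of those were tested. Of these 11, 6 were higher in set 2 and 2 were lower, with a median of 0.43. Calls in either direction were common in this comparison, so the counts are given as a description.

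The remaining ER and stress lists place these differences among neighbouring pathways. Their counts are read against all tested genes, of which 38.4% were higher and 32.3% lower. All 10 genes listed for the arm that runs from PERK through ATF4 and CHOP were higher in set 2, with a median log2 difference of 3.00. PERK activity was not measured, and mRNA levels do not show what acted upstream of these genes. Trib3, a pseudokinase induced by ATF4, had 2.71 ± 0.615 CPM in set 1 (SD, n = 4) and 231 ± 17.6 CPM in set 2 (SD, n = 5), a log2 difference of 5.99. Ddit3, which encodes CHOP, had 16 ± 2.36 and 685 ± 33.3 CPM, a difference of 5.34. The glutathione-degrading enzyme Chac1 differed by 4.63, the phosphatase subunit Ppp1r15a (GADD34) by 3.31, and Atf4 itself by 2.68. Of these 5 genes, the limma adjusted p was highest for Atf4, at 1.68e-10.

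Other lists moved less or in both directions. The counts of the regulators and the ER-phagy genes lay near the shares over all tested genes, 38.4% higher and 32.3% lower. Among 12 further regulators of the response, 5 were higher and 5 lower, with a median of -0.01. Wfs1, an ER membrane protein, was higher by 1.66, and Mbtps1, the protease that cuts ATF6, had a log2 difference of -0.996. The list of 12 other ER redox genes, which also counts Ppib and P4ha1, had 6 higher and 3 lower. The oxidases Ero1lb and Ero1l stood at 2.74 and 1.68 and the sulfhydryl oxidase Qsox1 at -1.13. Signal peptide and translocation genes were higher in 15 of 18, with none lower and a median of 0.76, led by the signal peptidase subunits Sec11c at 1.35 and Spcs2 at 1.33. N-glycosylation genes were higher in 8 of 14 and lower in 3, with Rpn1 of the oligosaccharyltransferase at 1.21. Of 21 other ERAD genes, 13 were higher and 1 lower, at a median of 0.25. ER-phagy genes had 4 of 10 higher and 2 lower. The COPII export list was higher in 11 of 15 genes and lower in 3, with the coat subunits Sec23b at 1.69 and Sec24d at 1.63. It also holds the KDEL receptors, which return ER proteins from the Golgi. Kdelr1 (-0.33) and Kdelr3 (-0.30) were among its 3 lower genes, and Kdelr2 was higher, at 0.68.

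**Figure D3:**
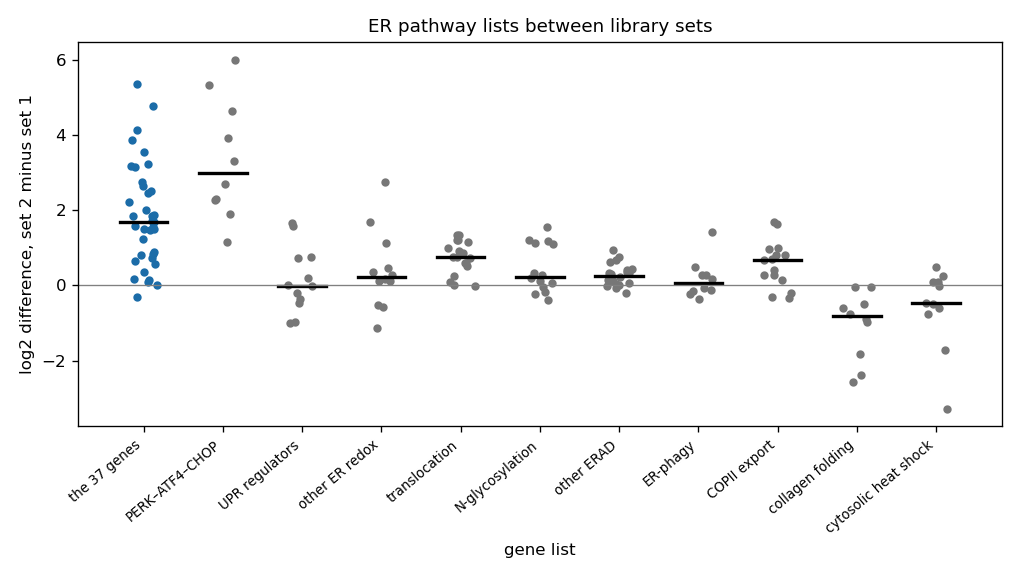
Log2 difference between set 2 and set 1 (y axis, log2(CPM + 1) scale) for the 37 genes (blue) and for the tested genes of 10 other lists (grey), 1 point a gene, with a bar at the median of each list. The PERK, ATF4 and CHOP list has a median of 3.00, the 37 genes 1.69, and the collagen folding and cytosolic heat shock lists -0.82 and -0.47.

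Folding genes outside this machinery had medians below 0. The 10 genes listed for collagen folding also work inside the ER. Of these 10, 8 were lower and none higher, with a median of -0.82. Over all tested genes 32.3% were lower and 38.4% higher. Ppib and P4ha1, which also act on collagen, were counted in the redox list, with Ppib higher at 0.35 and P4ha1 lower at -0.57. The prolyl hydroxylase P4ha2 had a log2 difference of -2.57 and the lysyl hydroxylase Plod2 one of -2.37. The summed fibroblast and mural markers were lower in set 2 as well, as given above, and their part was not tested. The cytosolic heat shock list, which also holds mitochondrial chaperones, was lower in 6 of 11 genes and higher in 1. That 1 gene was the mitochondrial Hspd1, at 0.25. Hspa8, the constitutive cytosolic Hsp70, stood at -1.70 and the small heat shock protein Hspb1 at -3.28.

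Treatment was compared with the library set as a covariate, because set 1 holds 2 control libraries but only 1 of each treated group. The first comparison asked what acetate changed in glucose-free astrocytes. Limma called 0 of the 37 genes and 0% of all tested genes (453 genes at an unadjusted p under 0.05, 2 of them members). The members' median log2 difference was -0.11, and 36 of 37 had a lower mean with acetate, while 60.1% of all tested genes did. Both values rested on single libraries. Without acetate 2 the count was 24 and the median -0.042, without control 3 they were 27 and -0.069, and without acetate 3 they were 37 and -0.192. Sdf2l1 was lowest at -0.33 (SE 0.13, adjusted p = 1), and Syvn1 stood at -0.24 (SE 0.08, adjusted p = 1). These 2 genes were the members under the unadjusted threshold. For Hspa5 the difference was -0.16 (SE 0.11, adjusted p = 1), with a 95% interval from -0.41 to 0.08. The stress factors Ddit3 and Atf4 stood at -0.06 and -0.12, each with an adjusted p of 1. Within set 1 the median over members was -0.12, with 28 lower, and within set 2 it was -0.13, with 33 lower.

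Without the set in the fit, the members' median turned to 0.46 and 33 of 37 had a higher mean with acetate. Derl3 then stood at 1.55 and Herpud1 and Sdf2l1 at 1.26 each, against -0.23, -0.11 and -0.33 with it. That fit also called no member.

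Aβ plus acetate was compared with acetate alone, which differ by the Aβ oligomers. Limma called 0 members and 0% of all tested genes (436 genes at an unadjusted p under 0.05, 0 of them members). The median over members was 0.00, with 18 lower and 19 higher, while 41.2% of all tested genes were lower and 58.8% higher. Log2 differences ran from -0.11 for Dnajc3 to 0.12 for Sdf2l1. For Hspa5 the difference was 0.07 (SE 0.11, adjusted p = 1), with a 95% interval from -0.17 to 0.31. For Derl3 the interval was wider, from -0.33 to 0.44 around 0.05. The median differed in sign between the sets, at 0.08 with 11 members lower in set 1 and at -0.05 with 26 lower in set 2. The count of lower members rests on the acetate libraries of set 2, being 32 without acetate 2 and 3 without acetate 3.

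The remaining comparison, Aβ plus acetate against control, shares its libraries with the other comparisons. Limma called 0 members and 0% of all tested genes (505 genes at an unadjusted p under 0.05, 1 of them a member). The members' median was -0.10 and 36 of 37 had a lower mean, against 51.8% of all tested genes. The count was 28 without control 3, and the median was -0.158 without Aβ plus acetate 1. Syvn1 had -0.25 (SE 0.08, adjusted p = 0.999) and was the member under the unadjusted threshold. The 95% interval for Hspa5 ran from -0.34 to 0.16 around -0.09. Within set 1 the median was -0.04 with 23 lower, and within set 2 it was -0.16 with 35 lower. Without the set in the fit the median was 0.48 and 31 members were higher.

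**Figure D4:**
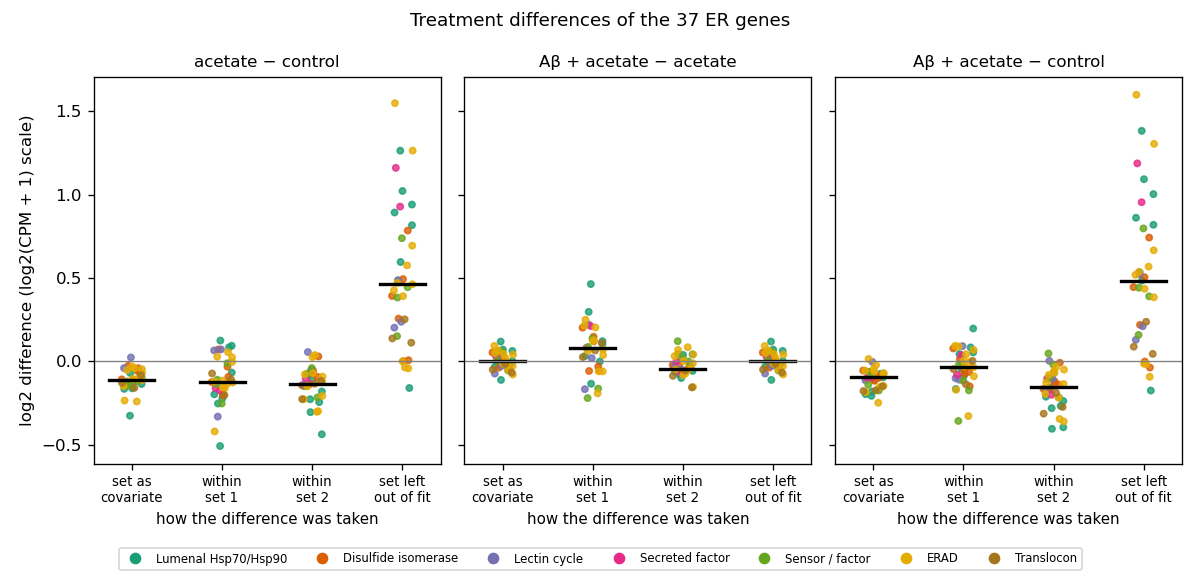
Log2 difference (y axis, log2(CPM + 1) scale) of the 37 genes in the 3 treatment comparisons, 1 point a gene, coloured by role, with a bar at the median. Each panel gives the fit with the library set as covariate, the differences of means within set 1 and within set 2, and the fit without the set. Medians with the covariate are -0.11, 0.00 and -0.10, and the comparisons with control turn to 0.46 and 0.48 when the set is left out.

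Whether a treatment difference itself differed between the sets was tested with contrasts of a fit with 1 mean per group and set. Each of these contrasts uses single libraries, namely treated libraries of set 1 and, in those with control, control 3 of set 2, which are assumed to vary like the 3 pairs that share a group and a set. With 3 residual degrees of freedom the test has little power, and 0 calls do not show that the sets responded alike. For each of the 3 comparisons limma called 0 members and 0% of all tested genes. At an unadjusted p under 0.05 there were 1016 genes for acetate and control, 518 for the addition of Aβ to acetate and 692 for both agents together, with 0 members in each. The 10 other pathway lists likewise had 0 called genes in the treatment comparisons. The medians of the PERK, ATF4 and CHOP list in the fit with the set were -0.07, 0.19 and 0.07 in the order above.

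Within set 2 most of the ER genes were low in the same library and high in the same libraries, and 2 replicates of 1 group lay farthest apart. Acetate 2 was the lowest of the 5 set 2 libraries for 32 of the 37 genes, against 25% of all tested genes, and lay below the set mean for all 37. Acetate 3 was the highest for 23 of the 37, against 17.9% of all tested genes. The median deviation from the set mean was -0.19 in acetate 2, 0.17 in acetate 3 and 0.10 in control 3, and -0.02 and -0.07 in Aβ plus acetate 2 and 3. Over all tested genes these medians lay between -0.02 and 0.01. The summed astrocyte markers were 12400 CPM in acetate 2 and 10800 CPM in acetate 3, and the ribosomal precursor Rn45s took 2.17 and 1.45% of CPM. In control 3 and Aβ plus acetate 2 and 3 the astrocyte sums were 10900, 11700 and 12900 CPM. Rn45s took 1.36, 0.486 and 0.675% there. Other sums also differed between acetate 2 and 3, with mural markers at 775 and 564 CPM and fibroblast and meningeal markers at 1320 and 1490 CPM. The part of any of these in this pattern was not tested.

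**Figure D5:**
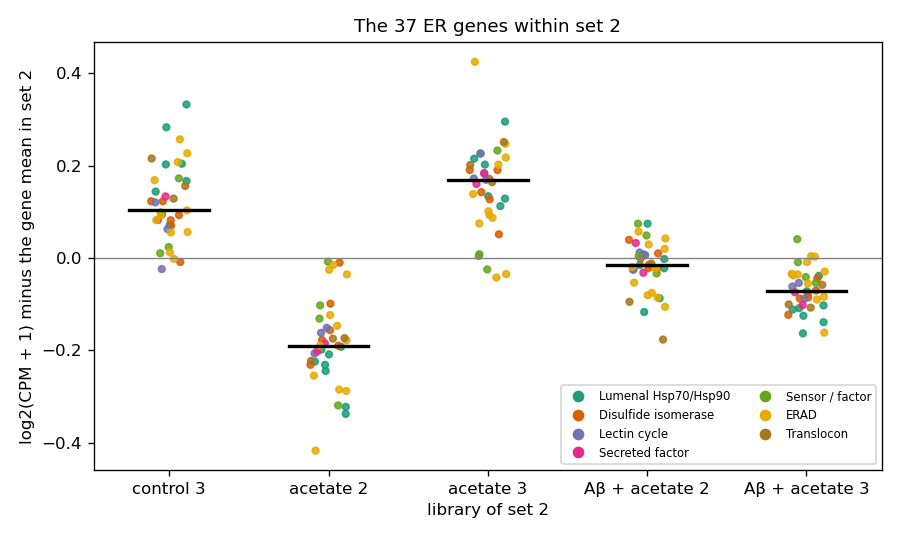
Log2(CPM + 1) of the 37 genes in the 5 libraries of set 2, minus the mean of the gene over those libraries (y axis), 1 point a gene, coloured by role, with a bar at the median. Acetate 2 lies at a median of -0.19 and acetate 3 at 0.17, so the 2 acetate libraries stand on either side of the other libraries.

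The ratio of acetate 3 to acetate 2 was above 1 for 36 of the 37 genes (97.3%), against 45.4% of all tested genes, with a median of 1.29. Derl3 had the highest ratio, 1.80, followed by Hsp90b1 at 1.53, Atf6 at 1.47 and Sel1l at 1.45. Xbp1 had the lowest, 0.988, and Herpud1 was level at 1.00. These 2 genes were among those farthest apart between the sets. Other members also had ratios near 1, among them Txndc5 at 1.04, Edem2 at 1.07 and Eif2ak3 and Syvn1 at 1.08 each. In set 1, acetate 1 was lowest for 18 members, against 34.3% of all tested genes, and control 2 was highest for 18, against 27.6%. Control 1 was highest for 16 members, against 39.7% of all tested genes, and lowest for 13, against 25.2%.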

How the data were processed

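RNA-seq of 9 astrocyte libraries was used. Per the labels' protocols, poly-A RNA was selected and made into libraries with a NEBNext Ultra kit. STAR 2.7.3a, Partek and FastQC are listed in the submitters' processing notes, as are GRCm39 and mm10, with no roles. The authors deposited CPM values for 18061 genes, each library summing to 1000000, per the file headers and values. A second deposited sheet of scores per gene was not used. Positions are as deposited. All 37 members overlap their gene in GENCODE M21 on mm10.

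Of the values worth at most 20 reads, 93.4 to 94.4% per library were whole numbers of reads (tolerance 0.1). This was too few for a count model. Depth limits low genes such as Derl3 most. Replicates of a group within a set differed by more than counting noise (chi-square per gene 11.9 to 36.1).

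Genes with at least 1 CPM in at least 3 libraries were fitted as log2(CPM + 1) with limma 3.58.1 in R 4.3.3, with group and library set as terms and a trended, robust prior (5 residual degrees of freedom). The fits were tested on simulated data. The members, lists and tests were chosen with earlier results of these data known. All 37 members could be named. Of each other list, the 4 genes with the smallest p were eligible, plus Atf4 and Ddit3. Hspd1, Ppib, P4ha1 and the KDEL receptor genes are named besides these, to show what their lists hold. Genes with all library values are up to 3 per role with the largest set difference, plus the sensors. Promoter sequences are from RefSeq, GRCm38.p6. Protein sequences were not used here. The alternatives were pseudocounts of 0.1 and 0.5, no filter or a mean CPM of 5, median-of-ratios and quantile scaling, a plain prior, array weights, other covariates, replicate blocks, set 2 alone, and each library left out.

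Replicate numbers in titles and in library names differ. Libraries sharing a library-name number deviated together from group means in 7 of 7 pairs (r across genes 0.761 to 0.947), but both libraries of every such pair belong to the same set. Title numbers did so in 7 of 9 pairs. With the set removed, r was -0.499 to -0.105 for library-name numbers. Independent values would give -0.5 to -0.091 in that fit, and 3 of 7 pairs lay above their own such value, so the check cannot separate the numbers from the set. The main fit holds the set and no block.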

Additional observations from a re-analysis of the deposited data

How the results depend on the processing

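In set 2 against set 1, 32 to 33 members were higher under every alternative run, with a median log2 difference of 1.63 to 1.77 when 1 library was left out. The count of lower members ran from 0 to 1 over the libraries left out, being 0 without acetate 1 or Aβ plus acetate 1, where Dnajc10 stood at -0.25 and -0.24. Edem2, never called, changed sign with median-of-ratios scaling (-0.03), with quantile normalization (-0.023), and when libraries were left out (-0.063 without acetate 1 to 0.075 without Aβ plus acetate 1). Txndc5 passed the threshold with quantile normalization (0.17), with array quality weights (0.17) and without control 1 (0.17), and Edem3 without acetate 2 (0.26).

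Leaving the set out, with no block or with the title number as a replicate block, turned the members' median for acetate against control to 0.46, with 4 members lower, and for Aβ plus acetate against control to 0.48, with 6 lower. The set is unevenly divided between control and treated groups by construction. With the set in the fit and 1 library left out, these medians ran from -0.19 to -0.04 and from -0.16 to -0.07. For Aβ plus acetate against acetate the members lower ran from 3 without acetate 3 to 32 without acetate 2, and the cause was not tested. A replicate block by library-name number gave medians of -0.16, 0.00 and -0.16, and the title number with the set gave -0.06, 0.00 and -0.07. No block changed a call. Treatment differences within set 1, which has 1 library of each treated group, are given without a test of their own. The depth is implied, not stated, and 0 calls do not show that treatments left these genes alike.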
